A study of Mus musculus with 6 samples.

Results

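The miR-200 family, miR-203 and miR-205 are microRNAs (miRNAs) of epithelial tissue, and their reads were followed here in a macrophage-like cell line. The members were 7 mature miRNAs chosen by name: mmu-miR-200a-3p, mmu-miR-200b-3p, mmu-miR-200c-3p, mmu-miR-141-3p, mmu-miR-429-3p, mmu-miR-203-3p and mmu-miR-205-5p, written below without the species prefix. Each was found as a row of the table of reads per mature miRNA, which holds 1109 entries. The cells were RAW 264.7, a macrophage line from a male mouse. One group of 3 libraries came from untreated cells (control), and the other group of 3 from cells exposed for 48 h to ox-LDL, the oxidized form of low-density lipoprotein (oxLDL). Uptake of this lipoprotein turns macrophages into lipid-laden foam cells. No transgene, deletion or second agent is named for either group, and the labels give no dose of ox-LDL. They give no time in culture for the controls, whose columns are named for time zero, so treatment and time in culture cannot be told apart. Separate cultures are not named for the libraries of a group either, and the p-values rest on a spread that may be technical.

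A miRNA is cut as a short strand from a hairpin precursor and guides the silencing of messenger RNAs that pair with its seed, the bases near its 5′ end. The miR-200 family has 5 members, made from a pair of gene clusters, and is best known for silencing the transcription factors ZEB1 and ZEB2 and so preserving E-cadherin and the epithelial state. Epidermal miR-203 restrains the stem-cell factor p63 as skin cells differentiate, and miR-205 is abundant in stratified and glandular epithelia. Macrophages are not epithelial cells, so these miRNAs would be looked for there at low levels.

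The mature sequences are shown because the family is defined by its seeds. Each is written 5′ to 3′ from RefSeq (GRCm38.p6), with bases 2 to 8, the seed, in capitals. The first 3 share one seed, the next 2 share another, and the last 2 have seeds of their own.
miR-200b-3p: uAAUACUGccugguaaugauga
miR-200c-3p: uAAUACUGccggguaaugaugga
miR-429-3p: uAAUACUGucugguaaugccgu
miR-200a-3p: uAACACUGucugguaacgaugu
miR-141-3p: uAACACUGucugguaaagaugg
miR-203-3p: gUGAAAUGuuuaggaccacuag
miR-205-5p: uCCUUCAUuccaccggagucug

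Counted from 1 at the 5′ end, the seeds of miR-200a-3p and miR-200b-3p differ by C4U. The closest pairs lie within the seed groups. From miR-200a-3p to miR-141-3p, 20 of 22 bases match and the changes are C17A and U22G. From miR-200b-3p to miR-200c-3p, 20 of the first 22 match and the changes are U11G and A22G. In the same seed group miR-429-3p stands further off, matching miR-200b-3p at 18 and miR-200c-3p at 17 of 22 bases, as many as miR-200a-3p matches each of them from the other seed group. How reads that fit several entries were assigned is not stated in the labels or the file, but all 42 values of the 7 members were whole numbers. None of the other mature mouse miRNAs in the RefSeq set carries any of these seeds, so the rows cover each seed completely there. By contrast miR-203-3p and miR-205-5p match each other at 3 of 22 positions.

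The hairpins lie at 4 places in the genome (GRCm38). Those of miR-200b, miR-200a and miR-429 sit in this order on the minus strand of chromosome 4, with gaps of 695 and 908 bases, inside an intron of Ttll10, on its strand. Mature miR-200b-3p is at chr4:156055685-156055706, miR-200a-3p at chr4:156054911-156054932 and miR-429-3p at chr4:156053916-156053937. The miR-429 hairpin also overlaps an exon of the noncoding transcript Gm13648. On the minus strand of chromosome 6, the hairpins of miR-200c (mature at chr6:124718324-124718346) and miR-141 (chr6:124717917-124717938) are 336 bases apart in an intron of the noncoding gene Gm15884. They lie between the protein-coding genes Phb2 and Ptpn6, the latter 2317 bases from the miR-200c hairpin and encoding a phosphatase of blood cells. The hairpin of miR-203 is on the plus strand of chromosome 12 (mature at chr12:112130927-112130948), outside any other gene of the GENCODE annotation, with Aspg 3321 bases away. That of miR-205 is on the minus strand of chromosome 1 (mature at chr1:193507503-193507524), in an exon of its noncoding host gene, Mir205hg in RefSeq.

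The libraries held between 5502826 and 7373188 miRNA reads, so that 1 CPM stood for 5.50 to 7.37 reads before TMM scaling. CPM, the unit of levels below, is the usual per-library share of reads. It is scaled by the TMM method unless stated, which shifts the reads per CPM somewhat. The cells were checked against a list of 6 macrophage miRNAs, among which miR-21a-5p (98670 ± 8740 CPM in control, mean ± SD, n = 3) and the blood-cell miRNA miR-142a-5p (67580 ± 6890 CPM) ranked 1 and 3 in the table. The others were lower in control, at 5127 CPM for miR-142a-3p, 4591 for miR-146a-5p, 296.5 for miR-155-5p and 73.52 for miR-223-3p. This list summed to between 168000 and 186600 CPM in control and between 183400 and 206600 CPM in oxLDL. Control replicate 2 stood apart, with more reads of muscle, liver and red-cell miRNAs than any other library, so results are also given without it where it matters.

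The 7 epithelial miRNAs were present in every library, at low level. Together they took 816, 975 and 710 reads in control replicates 1 to 3, and 666, 879 and 823 in the oxLDL libraries. As a share of all miRNA reads this was 110.7, 136.9 and 108.1 CPM before TMM scaling in control, with exact 95% Clopper-Pearson intervals of 103.2 to 118.5, 128.4 to 145.7 and 100.3 to 116.3. In oxLDL it was 121.0, 133.7 and 130.4, with intervals of 112.0 to 130.6, 125.0 to 142.9 and 121.7 to 139.6. The groups overlapped because control replicate 2 had the highest share of the 6, while the other 2 controls lay below all oxLDL libraries. These intervals cover counting error only, since reads copied by PCR and not tagged by molecule are not independent. In bulk RNA, fewer cells that make a miRNA and less of it per cell cannot be told apart.

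The member with the most reads was miR-141-3p. It made up between 37.1 and 47.1% of the 7 members' reads and ranked first in each library. Its mean level was 46.95 CPM in control, and miR-200b-3p came next at 16.89 CPM. Then came miR-200a-3p (11.34 CPM), miR-200c-3p (10.65 CPM), miR-203-3p (10.22 CPM), miR-429-3p (9.26 CPM) and miR-205-5p (7.25 CPM), and the controls of neighbours in this order overlapped from miR-200b-3p down. Ordered by mean over all 6 libraries none ranked below 368 among the 1109 entries. Adaptor ligation favours some RNA ends, so this order is one of reads and not of molecules.

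**Figure D1:**
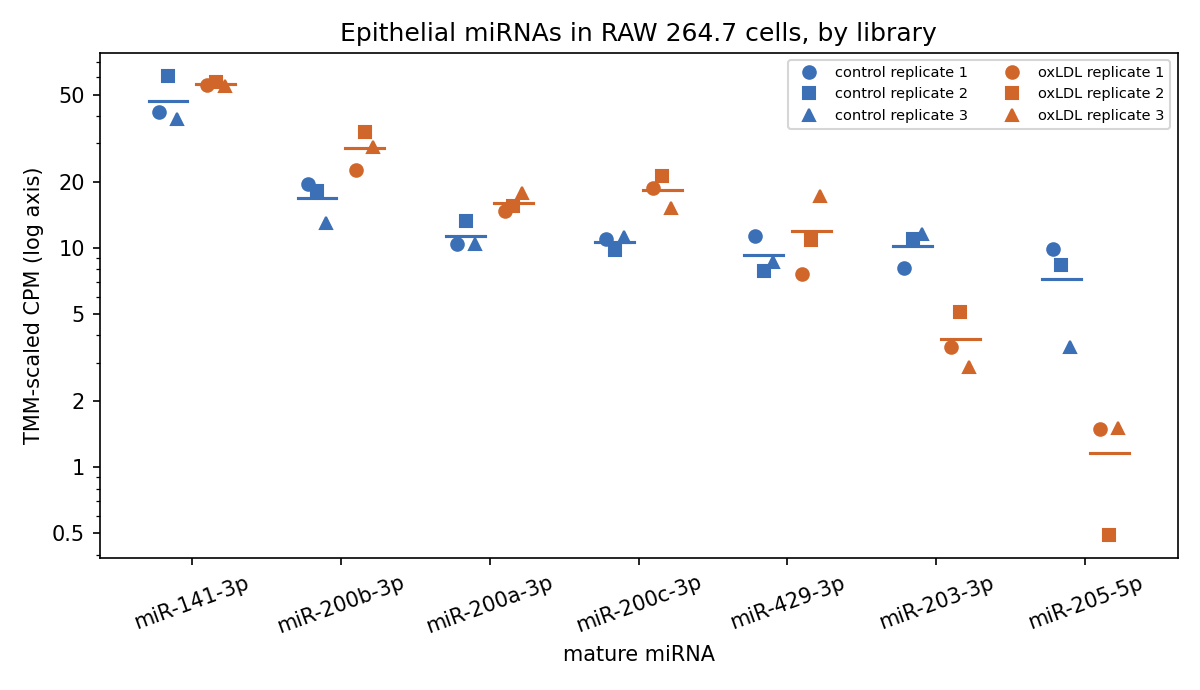
TMM-scaled CPM (log axis) of the 7 miRNAs in each of the 3 control (blue) and 3 oxLDL (orange) libraries, with a bar at each group's mean. The oxLDL points lie above the controls for miR-200a-3p, miR-200b-3p and miR-200c-3p and below them for miR-203-3p and miR-205-5p. For miR-141-3p and miR-429-3p the groups overlap.

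The comparison of oxLDL with control asked whether these miRNAs differ in ox-LDL-treated macrophages. The members went different ways. Of the 7, miR-200b-3p and miR-200c-3p were higher in oxLDL, miR-203-3p and miR-205-5p were lower, and miR-200a-3p, miR-141-3p and miR-429-3p did not pass the threshold of 0.05 (quasi-likelihood test of edgeR, Benjamini-Hochberg adjusted p over all tested entries). This makes 4 of 7 called, against 45.7% of the 475 tested entries (103 or 21.7% higher, 114 or 24.0% lower), so the number called is near the background. Of these 4, miR-205-5p passed the filter on low counts through its control libraries alone, as set out below. The background split was 82 higher and 158 lower with library totals alone, and 131 higher and 92 lower after centring on the median entry. Control and oxLDL values were fully apart for 5 of the 7, against 59.2% of all tested entries. The median log2 fold change was 0.37 over the 7 and -0.13 over all tested entries. It was -0.28 over all entries with library totals alone, so each member's distance from the median entry of the reported fit is given as well.

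In the cluster on chromosome 4, miR-200b-3p had 143, 137 and 95 reads in control replicates 1 to 3 and 122, 205 and 172 in oxLDL replicates 1 to 3. Scaled, these were 19.57, 18.14 and 12.97 CPM against 22.73, 33.66 and 28.91 CPM. Every oxLDL library was above every control once depth was taken into account, although oxLDL replicate 1 held fewer raw reads than 2 of the controls. It rose 1.68 times (log2 fold change 0.75, SE 0.225, 95% interval 0.23 to 1.27, edgeR adjusted p = 0.0268). Relative to the median entry the log2 difference was 0.88. It no longer passed when control replicate 3 was left out (edgeR adjusted p = 0.0772), nor without oxLDL replicate 2 (0.0915) or 3 (0.0610).

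Its neighbour miR-200a-3p had 76, 100 and 76 reads in control and 79, 95 and 106 in oxLDL, which is 10.40, 13.24 and 10.37 against 14.72, 15.60 and 17.82 CPM. The groups did not overlap, with control replicate 2 closest to the oxLDL libraries. The log2 fold change was 0.50 (SE 0.185, 95% interval 0.07 to 0.93, edgeR adjusted p = 0.0570), and it lay 0.63 above the median entry. It passed with RLE factors (edgeR adjusted p = 0.0422), with median centring (0.0248) and without control replicate 2 (0.0498).

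The third hairpin of the cluster gave miR-429-3p, with 83, 59 and 63 reads in control and 41, 66 and 103 in oxLDL. At 11.36, 7.81 and 8.60 against 7.64, 10.84 and 17.31 CPM, oxLDL replicate 1 was the lowest library and oxLDL replicate 3 the highest. The log2 fold change was 0.37 with a 95% interval from -0.36 to 1.09 (edgeR adjusted p = 0.361), and it lay 0.50 above the median entry. Without oxLDL replicate 3 the log2 fold change was -0.01.

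In the cluster on chromosome 6, miR-200c-3p had 80, 74 and 82 reads in control and 101, 130 and 90 in oxLDL. The controls lay close together at 10.95, 9.80 and 11.19 CPM, and the oxLDL libraries were all higher, at 18.81, 21.35 and 15.13 CPM. Its rise of 1.73 times (log2 fold change 0.79, SE 0.190, 95% interval 0.35 to 1.23) had an edgeR adjusted p of 0.0110, and it lay 0.92 above the median entry on the log2 scale. The call was lost without oxLDL replicate 2 (edgeR adjusted p = 0.0522).

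The most abundant member, miR-141-3p, had 303, 459 and 283 reads in control and 296, 349 and 326 in oxLDL. Scaled values were 41.46, 60.76 and 38.63 against 55.14, 57.30 and 54.79 CPM, so control replicate 2 exceeded every oxLDL library and the other 2 controls lay below them. The log2 fold change was 0.25, with a 95% interval from -0.22 to 0.71 (edgeR adjusted p = 0.338), and it lay 0.38 above the median entry. Without control replicate 2 the log2 fold change was 0.45 (edgeR adjusted p = 0.0668).

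Both called rises belong to the seed shared by miR-200b-3p, miR-200c-3p and miR-429-3p. Summed over that seed, the level was 41.87, 35.74 and 32.76 CPM in control and 49.18, 65.84 and 61.35 CPM in oxLDL. Over the seed of miR-200a-3p and miR-141-3p it was 51.86, 74.00 and 49.00 CPM against 69.85, 72.90 and 72.61 CPM, with the groups overlapping through control replicate 2. Whether the seed groups differed in their response was not tested. All 5 family members together summed to 95.08 ± 14.0 CPM in control and 130.6 ± 10.3 CPM in oxLDL (mean ± SD, n = 3), and these sums did not overlap.

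The proportions of reads within a cluster varied between libraries. For each 100 reads of miR-200c-3p there were 379, 620 and 345 of miR-141-3p in control and 293, 268 and 362 in oxLDL, highest in control replicate 2. For each 100 reads of miR-429-3p there were 172, 232 and 151 of miR-200b-3p in control and 298, 311 and 167 in oxLDL. Both ratios overlapped between the groups, and no scaling enters them.

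Outside the family, the skin miRNA miR-203-3p had 59, 83 and 85 reads in control and 19, 31 and 17 in oxLDL. This was 8.07, 10.99 and 11.60 CPM against 3.54, 5.09 and 2.86 CPM, with a clear gap between the groups. It fell 2.66 times (log2 fold change -1.41, SE 0.271, 95% interval -2.04 to -0.78, edgeR adjusted p = 0.00397). The log2 value relative to the median entry was -1.28. Among all tested log2 fold changes it stood at percentile 9.90 from the bottom. Leaving out any 1 library kept the call, with log2 fold changes from -1.67 to -1.25 and edgeR adjusted p up to 0.0135.

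The lowest member was miR-205-5p, with 72, 63 and 26 reads in control and 8, 3 and 9 in oxLDL. Exact Poisson 95% intervals, for counting error alone, were 17.0 to 38.1 reads for control replicate 3, the lowest control, and 4.12 to 17.1 reads for oxLDL replicate 3, the highest of its group. The scaled levels were 9.85, 8.34 and 3.55 CPM against 1.49, 0.493 and 1.51 CPM, without overlap. It fell 6.20 times (log2 fold change -2.63, SE 0.512, 95% interval -3.82 to -1.45, edgeR adjusted p = 0.00420), or by 2.50 relative to the median entry on the log2 scale, and stood at percentile 2.50 of all tested entries. This entry passed the filter on low counts through its control libraries alone: 3 controls and 0 oxLDL libraries reached the filter's 1.52 CPM, so it could hardly have been tested without being higher in control. The other 6 members reached that level in all 6 libraries. Among tested entries 24.0% were called lower and 14.3% were called at least 2-fold lower. The call of miR-205-5p held with each library left out (log2 fold change -2.99 to -2.25, edgeR adjusted p up to 0.0185). These refits do not lift the limit set by the filter.

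**Figure D2:**
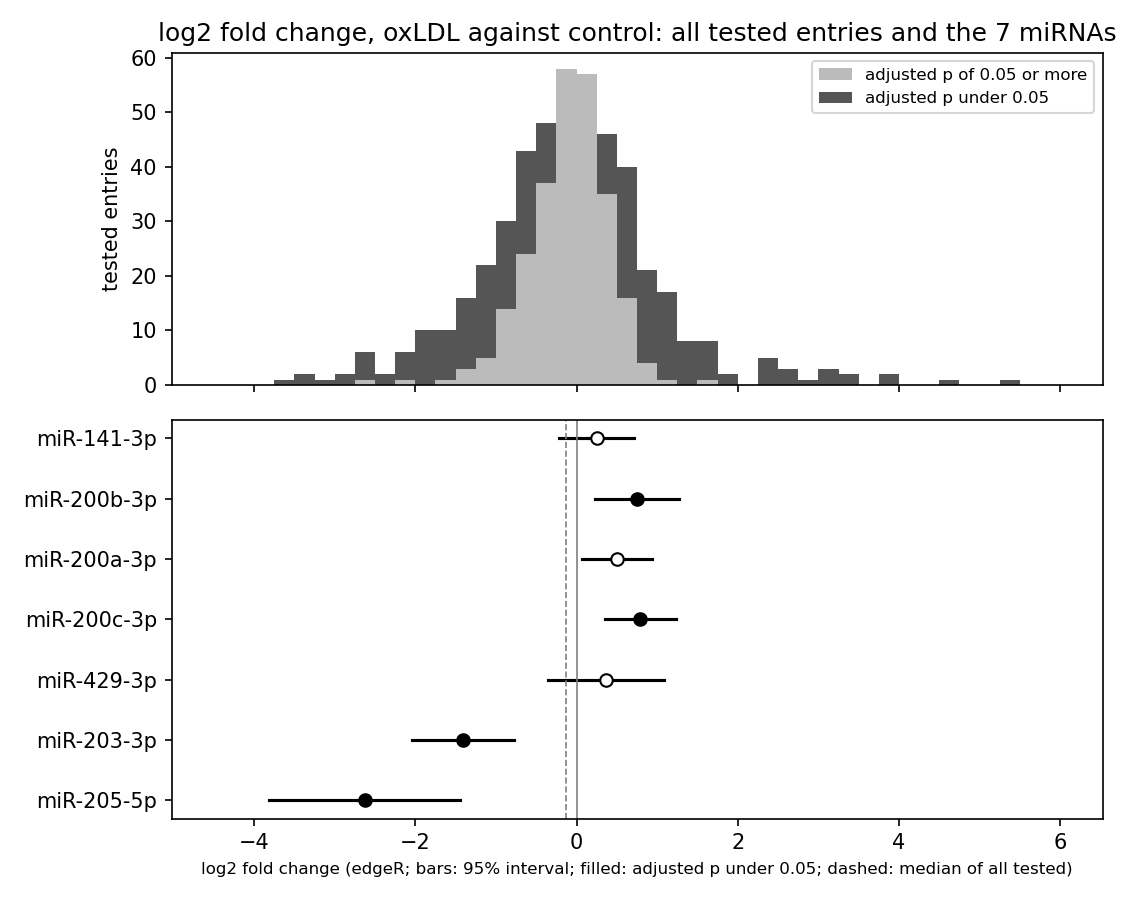
Top, number of tested entries by log2 fold change of oxLDL against control, dark where the edgeR adjusted p was under 0.05. Bottom, log2 fold change of the 7 miRNAs with 95% intervals, filled where called, and a dashed line at the median of all tested entries (-0.13). The points of miR-203-3p (-1.41) and miR-205-5p (-2.63) lie in the left tail, and the 5 family members between 0.25 and 0.79.

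The same counts can be set against each other within libraries, in ratios that need no scaling and were chosen after the values were seen. Being made of counts already compared, these ratios restate the contrast and are no separate support for it. For each 100 reads of the miR-200 family there were 8.61, 10.01 and 14.2 reads of miR-203-3p in control and 2.97, 3.67 and 2.13 in oxLDL. For miR-205-5p there were 10.5, 7.60 and 4.34 reads in control and 1.25, 0.355 and 1.13 in oxLDL. Neither ratio overlapped between the groups. As a part of the 7 members' reads, miR-203-3p went from 7.23, 8.51 and 12.0% to 2.85, 3.53 and 2.07%, and miR-205-5p from 8.82, 6.46 and 3.66% to 1.2, 0.341 and 1.09%.

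An exact two-sided permutation test of the CPM values of each member gave p = 0.10 for the 5 whose groups did not overlap, the smallest value that 3 against 3 libraries allow. The same exact test gave p = 0.40 for miR-141-3p and p = 0.70 for miR-429-3p.

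**Figure D3:**
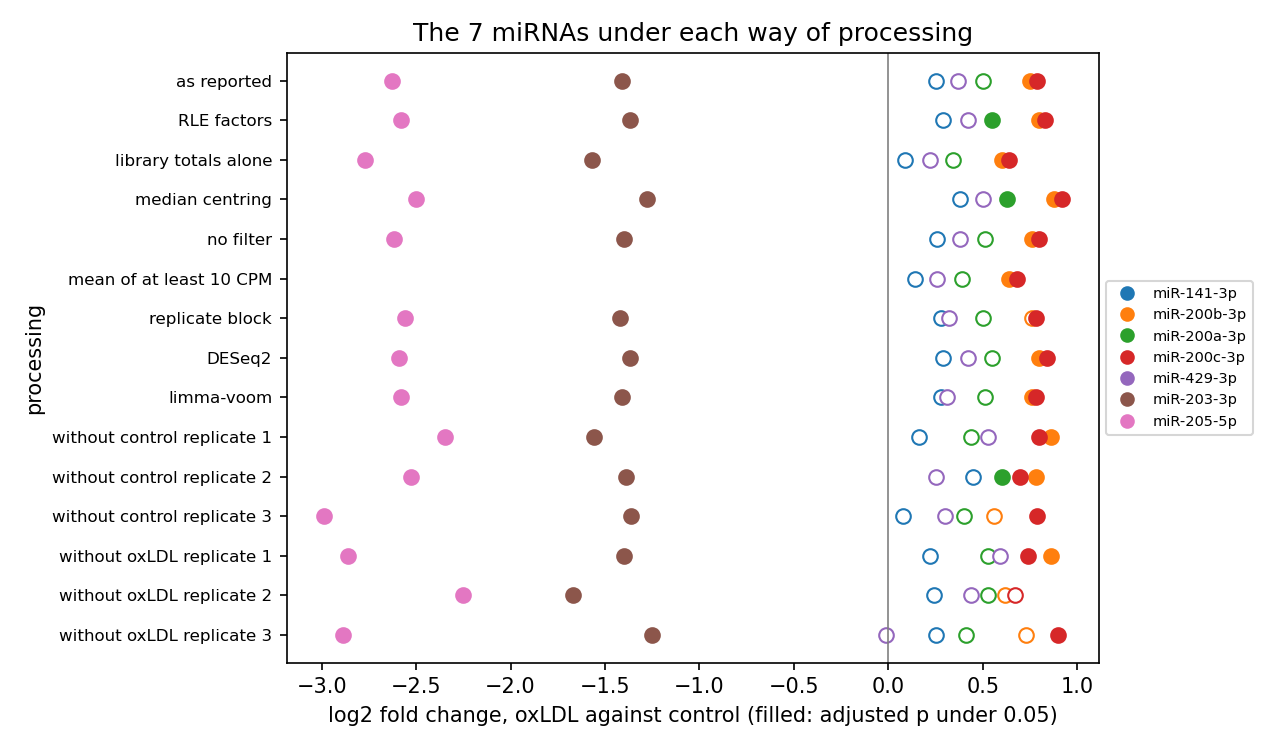
Log2 fold change of the 7 miRNAs (colours) under the processing reported and each of 14 alternatives (rows), filled where the adjusted p was under 0.05. Every point of miR-203-3p and miR-205-5p is filled and lies left of 0, except that neither was tested with a mean of at least 10 CPM, whereas those of miR-200b-3p, miR-200c-3p and miR-200a-3p cross the threshold in some settings.

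Reads came almost wholly from one arm of each hairpin. The other arms of miR-141, miR-200a, miR-200b, miR-200c and miR-203 had 44, 20, 14, 8 and 4 reads over the 6 libraries together, between 1.34 and 3.62% of each hairpin's reads. None of these 5 reached the filter on low counts, so none was tested. The 4 reads of miR-203-5p were all in control, 2 each in replicates 1 and 2, a number too small to compare. The other arms of miR-429 and miR-205 were not analysed here.

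Other miRNAs linked with epithelia were taken as a list of 9. Of the 8 tested, 4 were higher and 1 was lower in oxLDL, with a median log2 fold change of 0.56. Over all tested entries 21.7% were called higher and 24.0% lower. The partners miR-183-5p and miR-182-5p, made from a hairpin cluster of sensory and other epithelia, rose 2.29 times (edgeR adjusted p = 0.000267) and 1.90 times (0.000580). They were far more abundant than the 7 members, with 12460 ± 1780 CPM of miR-182-5p in control (mean ± SD, n = 3). The gut and liver miRNA miR-192-5p rose 1.68 times (edgeR adjusted p = 0.0263). So did miR-184-3p, an eye and skin miRNA named after its values were seen, 2.05 times (0.0272). The single fall was that of miR-31-5p, a miRNA of skin and other epithelia, with 77, 83 and 12 reads in control and 3, 4 and 11 in oxLDL (7.38 times lower, edgeR adjusted p = 0.0179). Its groups overlapped, since control replicate 3 lay below oxLDL replicate 3. In oxLDL replicates 1 and 2 its levels of 0.559 and 0.657 CPM lay under the 1.52 CPM of the low-count filter. It therefore passed that filter mainly through its controls. With limma-voom the call of miR-31-5p was lost (limma-voom adjusted p = 0.0867). Control replicate 3 was also the lowest control for miR-205-5p. While miR-182-5p and miR-183-5p kept their calls with each library left out, miR-192-5p lost its call without any 1 library other than control replicate 2 (edgeR adjusted p up to 0.0928). For miR-184-3p this happened on leaving out replicate 2 or 3 of control, or replicate 1 or 2 of oxLDL (up to 0.0937), and for miR-31-5p without control replicate 1 or oxLDL replicate 1 or 2 (up to 0.0664). The tested entries that did not pass were miR-375-3p (log2 fold change -0.94), miR-194-5p (0.37) and miR-215-5p (0.21). With no low-count filter miR-375-3p passed (edgeR adjusted p = 0.0273). From the cluster of miR-183-5p and miR-182-5p, miR-96-5p had at most 3 reads in any library and was not tested.

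The 6 macrophage miRNAs gave 1 rise and 1 fall, with a median log2 fold change of 0.19, where 45.7% of all tested entries were called. Inflammation-inducible miR-146a-5p rose (2.82 times higher) and miR-155-5p fell (1.55 times lower). The log2 fold changes of miR-223-3p (0.57), miR-142a-3p (0.23), miR-21a-5p (0.15) and miR-142a-5p (-0.01) did not pass. After centring on the median entry miR-142a-3p passed (log2 fold change 0.36, edgeR adjusted p = 0.0330) and miR-142a-5p stood at 0.12. The call of miR-155-5p was lost without control replicate 1 or oxLDL replicate 3 (edgeR adjusted p = 0.0627 and 0.0598), and miR-223-3p passed without oxLDL replicate 1 (log2 fold change 0.81, edgeR adjusted p = 0.0127).

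Markers of other cell types differed between the libraries as well. The 9 mesenchymal miRNAs summed to 6911 to 9479 CPM in control and 4530 to 8346 CPM in oxLDL. Of the 8 tested, 4 were lower and 0 higher at a median log2 fold change of -1.17, with miR-199a-3p and miR-199b-3p sharing the same reads. Over all tested entries 24.0% were called lower and 21.7% higher. On the mesenchymal list miR-214-3p fell 5.41 times, from 92, 92 and 88 reads to 17, 15 and 7 (edgeR adjusted p = 0.000504). Its other arm miR-214-5p fell 3.89 times (0.0116), from 14, 22 and 10 reads to 4, 2 and 3. All its oxLDL libraries lay under the filter's 1.52 CPM. Like miR-205-5p, it could hardly have been tested without being higher in control. A fall of 3.45 times was called for miR-199b-5p (0.0218). The fourth was miR-10b-5p, named after its values were seen, with 1690 ± 463 CPM in control against 530 ± 397 CPM after ox-LDL (edgeR adjusted p = 0.0395). Its call was lost without any of the 3 controls or oxLDL replicate 2 (edgeR adjusted p up to 0.116), and that of miR-199b-5p without control replicate 1 or oxLDL replicate 2 (up to 0.0664). The tested entries not called were miR-199a-3p and miR-199b-3p (log2 fold change 0.07), miR-199a-5p (0.19) and miR-143-3p (-0.68). All oxLDL values of miR-199a-5p lay above the controls, and it passed with median centring (edgeR adjusted p = 0.0444). The groups overlapped for miR-143-3p, which passed with no low-count filter and without oxLDL replicate 1 (8.9e-05 and 0.0405). The endothelial miR-126a-3p was called lower (2.13 times, edgeR adjusted p = 0.0333), the other endothelial marker had too few reads to test, and the pair summed to 276.9 to 478.2 CPM in control and 104.2 to 268.8 CPM in oxLDL. These falls ran beside those of miR-203-3p and miR-205-5p, and their part in those results was not tested. Leaving out control replicate 2 ended the call of miR-126a-3p, as did leaving out control replicate 3, oxLDL replicate 2 or oxLDL replicate 3.

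Control replicate 2, the library with the most miR-141-3p, was also highest for several other markers. Muscle miRNAs summed to 485.7 CPM there, against 77.39 and 90.85 CPM in the other controls and 63.03 to 235.6 CPM in oxLDL. Red-cell miRNAs summed to 212.7 CPM in that library, against 64.17 and 75.48 CPM in the other controls and 32.51 to 60.35 CPM in oxLDL. For the liver miRNA miR-122-5p the value was 85.65 CPM, against 18.61 and 5.05 CPM, and 1.97 to 11.93 CPM in oxLDL. The neural pair summed to 51.76 CPM there, against 33.39 and 21.16 CPM, and 18.44 to 47.90 CPM in oxLDL. Of the tested entries on these lists, 1 of 3 red-cell miRNAs was called (miR-451a, 3.00 times lower, edgeR adjusted p = 0.0341). The calls were 0 of 3 for muscle, 0 of 1 for liver and 0 of 1 for neural, against 45.7% over all tested entries. The values that did not pass were log2 fold changes of -1.09 for miR-144-3p, -1.33 for miR-486a-5p, -2.73 for miR-122-5p, -1.56 for miR-1a-3p, -0.96 for miR-133b-3p, -0.56 for miR-133a-3p and -0.31 for miR-9-5p. Of these, miR-122-5p, miR-144-3p and miR-486a-5p had unadjusted edgeR p-values of 0.0327, 0.0306 and 0.0336, and the muscle and neural entries had none under 0.05. With library totals alone miR-122-5p, miR-144-3p and miR-486a-5p passed (edgeR adjusted p = 0.0499, 0.0411 and 0.0440). Each also passed in some other alternatives, and missed the threshold in most. When control replicate 2 was left out miR-451a missed the threshold (edgeR adjusted p = 0.0774), and the same held on leaving out replicate 2 (0.110) or 3 (0.0844) of oxLDL. Without this library miR-203-3p (log2 fold change -1.39), miR-205-5p (-2.53), miR-200b-3p (0.78) and miR-200c-3p (0.70) were still called.

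**Figure D4:**
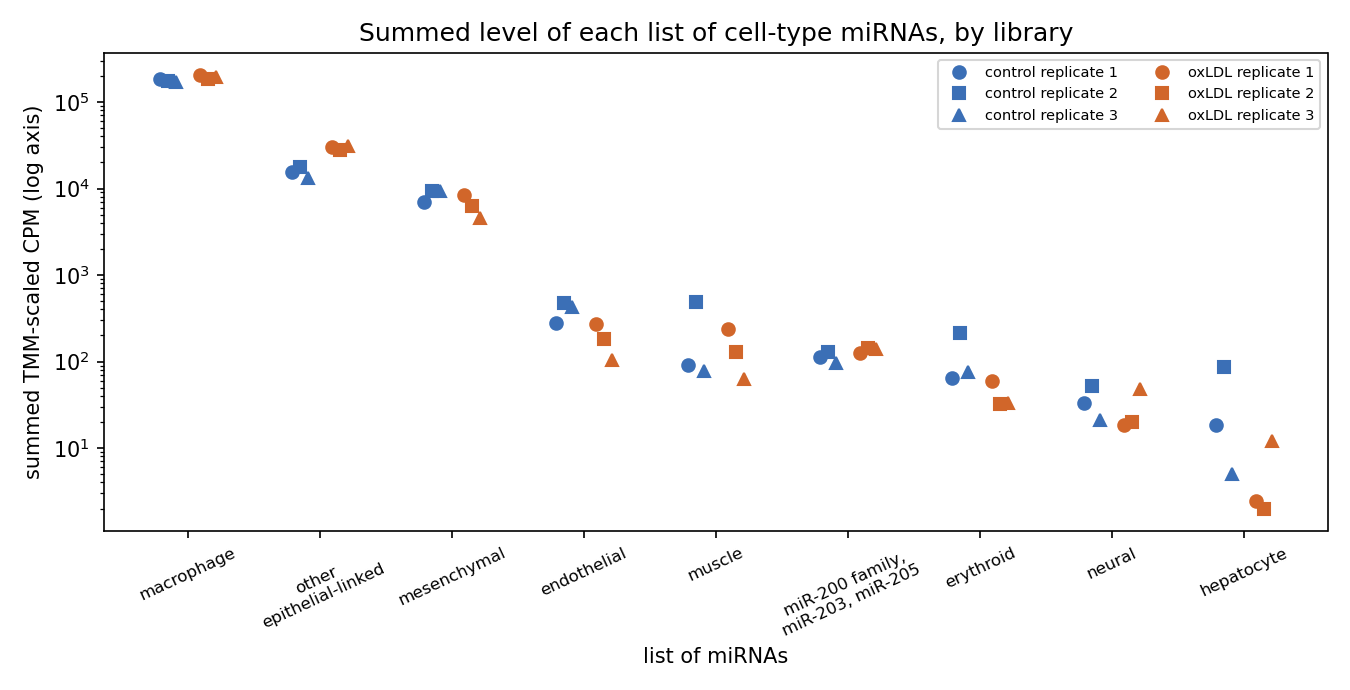
Summed TMM-scaled CPM (log axis) of each list of cell-type miRNAs in the 3 control (blue) and 3 oxLDL (orange) libraries. The 7 members sum to between 96.91 and 144.3 CPM, far under the macrophage list. Control replicate 2 (blue square) is the highest library for the muscle, erythroid, neural, hepatocyte and endothelial lists and, narrowly, for the mesenchymal list.

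The pattern of miR-141-3p over the 6 libraries was compared with that of the 294 other entries that had a mean of at least 10 CPM, by Pearson's r of log2(CPM + 1). The closest were miR-192-5p (r = 0.909), miR-194-5p (0.833), miR-199a-5p (0.819), miR-301a-3p (0.798) and miR-677-5p (0.796). For the sum of the 7 members the closest were again miR-192-5p (0.951) and miR-194-5p (0.931), then miR-181a-5p (0.909), miR-677-5p (0.877) and miR-17-3p (0.861). All of these share the same libraries and scaling, so the values describe likeness in these samples and nothing more.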

How the data were processed

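The data are small RNA sequencing counts. The authors deposited them as a single table of estimated counts per mature miRNA, and its column sums differ, so no scaling to a shared total was applied. Of its 6654 values, 117 were not whole (tolerance 1e-06), none of them a member's. Per the labels' protocols, Trizol was used for extraction, small RNA was selected by gel, and libraries were sequenced on an Illumina instrument. The build was GRCm38.p5 per the submitters' processing notes. The aligner, counter and miRNA database version are not given in the sources used here.

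Samples were grouped by title, and each column by the group and number in its name. Counts were rounded and tested in edgeR (4.0.16, under R 4.3.3) by quasi-likelihood, with TMM factors, edgeR's filter by group and Benjamini-Hochberg adjustment over the 475 tested entries, at a threshold of 0.05. This step was tested on simulated data. As alternatives, the fit was repeated with RLE factors, without TMM factors, with median centring, no low-count filter, a minimum mean of 10 CPM, the replicate number as a block, DESeq2 (1.42.0), limma-voom (limma 3.58.1) and leaving out each library. No 2 libraries agreed within sampling noise (lowest chi-square per degree of freedom 130.04).

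The members and lists were chosen with earlier results of these data known. The named miRNAs are the members, their other arms, the 5 entries most like miR-141-3p and like the sum, up to 3 entries with the smallest p of each list, the macrophage list, miR-451a, miR-122-5p, miR-133a-3p and miR-1a-3p. Others are marked in the text or were named as list entries that did not pass. Sequences were read from RefSeq, where 957 of the 1109 entries had one, and hairpin surroundings from GENCODE M21.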

Additional observations from a re-analysis of the deposited data

How the results depend on the processing

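The calls of miR-203-3p and miR-205-5p held in each of the 13 alternatives that tested them. With a mean of at least 10 CPM neither was tested, which left 2 of the members called and 0 lower. All but the fit with no low-count filter kept that filter, which miR-205-5p passed as reported through its controls alone. For miR-205-5p the number of alternatives is therefore no separate support. Of 14 alternatives, miR-200c-3p was called in 13, miR-200b-3p in 10, miR-200a-3p in 3, and miR-141-3p and miR-429-3p in 0. With 1 library left out, between 2 and 5 members were called, 0 to 3 of them higher and 2 lower each time. The 0 came without oxLDL replicate 2, where miR-200b-3p and miR-200c-3p both lost their call. The log2 fold change of miR-429-3p, not called, ran from -0.01 (without oxLDL replicate 3) to 0.59 (without oxLDL replicate 1), and all other members kept their direction in every setting run. Same-numbered libraries did not deviate together (correlations of -0.299, -0.232 and -0.104), and none correlated best with its own number. With the replicate block 1 member was higher, since miR-200b-3p missed the threshold (edgeR adjusted p = 0.0503), and 2 were lower. Over the whole table between 161 and 251 entries were called in the alternatives, against 217. Among the lists, called entries ranged from 2 to 6 for other epithelial-linked miRNAs (5 as reported), 2 to 5 for mesenchymal (4), 1 to 3 for macrophage (2), 0 to 3 for red-cell (1), 0 to 4 for muscle (0, and 4 with no low-count filter alone), and 0 to 1 for liver (0) and endothelial (1). Without the 5 most abundant entries in the denominator the 7 members took 167.4 to 210.5 CPM, a change that follows from the smaller total. Depth limits miR-205-5p most: its 3 reads in oxLDL replicate 2 have a Poisson interval of 0.619 to 8.77, for counting error alone. No group of 3 could be formally searched for single outlying libraries, and control replicate 2 was singled out by its marker reads. The causes of the lost calls were not tested.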

Other observations

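The miRNAs whose levels over the 6 libraries were most like those of miR-203-3p and miR-205-5p were looked up after their values were seen, among the same 294 entries. For miR-203-3p they were other arms of let-7 hairpins, let-7b-3p (Pearson's r of log2(CPM + 1) 0.959), let-7a-1-3p and let-7c-2-3p (both 0.944), then miR-345-3p (0.938) and miR-3473d (0.936). Of these, let-7b-3p fell by 0.62 on the log2 scale (edgeR adjusted p = 0.0152), less than miR-203-3p.

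For miR-205-5p the closest were miR-30c-2-3p (0.990), miR-30c-1-3p (0.974), miR-221-3p (0.972), miR-423-5p (0.970) and miR-744-5p (0.961). The log2 fold change of miR-30c-2-3p was -1.16 (edgeR adjusted p = 0.00241). The 6 points of such a correlation fall into the 2 groups, so r takes in the difference between the groups as well as likeness within them, and no relation between these miRNAs is shown by it. Among the members, miR-203-3p and miR-205-5p had an r of 0.71 with each other and of -0.77 and -0.92 with miR-200c-3p.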
